A study of Mus musculus with 9 samples.

Results

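The Schlafen genes form a family of interferon-regulated genes that is expanded in mice, and 7 of its members, Slfn1, Slfn2, Slfn3, Slfn4, Slfn5, Slfn8 and Slfn9, were followed here in bone marrow macrophages. They were found by symbol, and all 7 were among the 22376 gene symbols listed. The family was chosen from earlier results of these same libraries, in which Slfn4 was among the larger rises, so its differences between PD-L1 antibody and the other groups are given here as a description, and whether a member passed the limma threshold in them is read only as a value, not as evidence. The study had 9 RNA-seq libraries in 3 groups of 3, all from wild-type C57Bl/6 mice. Marrow cells were grown for 1 week in bags with 10 ng/ml of the growth factor M-CSF, washed free of it, and kept for 48 h in wells of 50000 cells. The PD-L1 antibody group was given an antibody to PD-L1 at 100 µg/ml. PD-L1 is a surface protein of macrophages that engages PD-1, an inhibitory receptor of T cells. A second group received the same dose of an isotype antibody, a matched antibody of irrelevant specificity, and the remaining group was untreated. Libraries are numbered as in the labels, PD-L1 antibody 1 to 3, isotype antibody 4 to 6 and untreated 7 to 9. The labels do not give the age or sex of the mice or say if the wells trace back to different animals, and p-values here therefore reflect the scatter among these libraries only, part or all of which may be technical.

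Schlafen proteins share an N-terminal domain that binds transfer RNA and in some members cuts it, and they are divided by length. The short forms, Slfn1 and Slfn2, are known from T cell quiescence, and Slfn2 shields transfer RNAs from cleavage under oxidative stress. The intermediate forms, Slfn3 and Slfn4, add a linker region, and Slfn4 is known as a myeloid gene induced by interferon and Toll-like receptor signals. The long forms, Slfn5, Slfn8 and Slfn9, carry in addition a helicase-like domain. In the annotation the coding sequences encode 337 and 378 residues in Slfn1 and Slfn2, 517 and 602 in Slfn3 and Slfn4, 884 in Slfn5 and 910 in each of Slfn8 and Slfn9. Slfn3 and Slfn4 were the closest pair, with 95.3% identity over 1521 aligned coding bases. Slfn8 and Slfn9 followed with 92.7% over 2730 bases.

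All 7 genes lie together on chr11:82952102-83215154 of the mouse genome build GRCm38, a stretch of 263053 bases. Along the chromosome the order is Slfn5, Slfn9, Slfn8, the pseudogene Slfn10-ps, Slfn2, Slfn1, Slfn4 and Slfn3, with Slfn9, Slfn8 and Slfn10-ps on the minus strand and the others on the plus strand. The transcripts span chr11:82952102-82964850 (Slfn5), chr11:82980303-82991830 (Slfn9), chr11:83002158-83020810 (Slfn8), chr11:83065112-83070678 (Slfn2), chr11:83116845-83122659 (Slfn1), chr11:83175186-83190216 (Slfn4) and chr11:83191330-83215154 (Slfn3). Slfn4 ends 1113 bases before Slfn3 begins. Slfn14, a further long member, lies 59957 bases beyond Slfn3.

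The promoters are shown because the 2 members with the largest differences, Slfn4 and Slfn1, hold a stretch of sequence in common. The sequences are RefSeq's for GRCm38.p6, 110 bases each, written 5′ to 3′ on the strand of the gene and ending 1 base before the start site, except for Slfn5, where the window runs from -170 to -61. In the first 4, capitals mark the longest run that the gene shares with the Slfn4 promoter (in Slfn4, with Slfn1). In the last 3, capitals mark matches to GAAANNGAA, a core of the interferon-stimulated response element, or to its reverse complement. Slfn4 is at chr11:83175076-83175185, Slfn1 at chr11:83116710-83116819, Slfn2 at chr11:83065002-83065111 and Slfn3 at chr11:83191220-83191329, all on the plus strand. Slfn5 is at chr11:82951932-82952041 on the plus strand, Slfn8 at chr11:83020811-83020920 and Slfn9 at chr11:82991831-82991940, both on the minus strand.
Slfn4: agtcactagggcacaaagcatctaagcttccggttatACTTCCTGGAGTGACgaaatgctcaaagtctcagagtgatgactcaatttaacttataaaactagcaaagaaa
Slfn1: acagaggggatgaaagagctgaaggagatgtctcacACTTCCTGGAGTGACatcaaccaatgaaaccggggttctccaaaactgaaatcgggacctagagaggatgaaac
Slfn2: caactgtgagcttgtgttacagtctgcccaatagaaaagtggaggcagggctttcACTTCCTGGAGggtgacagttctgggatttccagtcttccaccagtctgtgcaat
Slfn3: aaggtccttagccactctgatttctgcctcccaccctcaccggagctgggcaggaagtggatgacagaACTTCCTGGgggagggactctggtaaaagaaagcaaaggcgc
Slfn5: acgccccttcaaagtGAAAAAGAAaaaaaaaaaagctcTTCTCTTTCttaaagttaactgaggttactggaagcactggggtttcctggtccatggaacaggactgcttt
Slfn8: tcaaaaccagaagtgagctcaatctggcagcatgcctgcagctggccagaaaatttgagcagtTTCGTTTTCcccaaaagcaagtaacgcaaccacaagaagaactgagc
Slfn9: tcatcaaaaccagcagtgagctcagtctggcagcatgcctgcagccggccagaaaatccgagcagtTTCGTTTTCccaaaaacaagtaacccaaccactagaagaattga

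The 15-base run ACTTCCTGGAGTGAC began at -73 in Slfn4 and at -74 in Slfn1. Of 32851 mouse promoter windows of 300 bases (250 before and 50 after the start), 2 held it on either strand. These were the Slfn1 and Slfn4 windows, from which the run was taken. Its first 11 bases were also found in Slfn2 at -55 and occurred in 24 windows (0.0731%). Its first 9 bases were found in Slfn3 at -42 and occurred in 277 windows (0.843%). The run was noticed by comparing the 7 windows with each other and is a description of the sequence. Slfn8 and Slfn9 had a longer run in common, of 20 bases, which 3 windows held, so a rare shared run was not particular to Slfn1 and Slfn4. Over the whole 300 bases the Slfn1 and Slfn4 windows were 57.2% identical over 257 aligned bases, while Slfn8 and Slfn9 were 84.9% identical over 292.

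The motifs of 6 factors or factor families were searched on both strands of the 300-base windows, and matches are descriptions, not sites of binding. GAAANNGAA was found in 3 of the 7, in Slfn5 at -155 and -132, in Slfn8 at -47 and in Slfn9 at -44, and in 8.56% of all windows. TGANTCA, the AP-1 motif, was found in Slfn4 at -34 and in 7.81% of all windows. No member held TTCNNNGAA (gamma-activated site, 8.30% of all windows), GGANNTTCC (part of the kappa B motif, 4.26%), TTGCNNCAA (C/EBP, 2.08%) or GAGGAAGT (PU.1, 3.20%) within this window. Only exact matches were counted. On the opposite strand, the run ACTTCCTGG of Slfn1, Slfn2, Slfn3 and Slfn4 holds CAGGAAGT, which differs from GAGGAAGT in its first base only.

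Values below are CPM (exonic reads per 1000000 after scaling), and differences are between group means of log2(CPM + 1), with the standard error (SE) from limma. Depth ran from 23554320 exonic read equivalents in untreated 7 to 40116467 in untreated 9. Macrophage markers were high in all libraries, with the 9 genes of that list summing to 18220 to 27080 CPM. Of 13741 genes tested against the isotype antibody, 2495 (18.2%) were called higher with the PD-L1 antibody and 2501 (18.2%) lower, at a limma adjusted p under 0.05. Scaling by total reads alone moved this split to 1565 and 4143 and the median of all genes from -0.01 to -0.16, and against untreated wells it moved 3017 and 2814 to 1940 and 4088. In bulk RNA, fewer cells of a type and less RNA per cell cannot be told apart.

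Slfn4 differed the most. In PD-L1 antibody 1, 2 and 3 it measured 327.6, 509.2 and 336.2 CPM. It measured 17.7, 4.536 and 10.83 CPM in isotype 4, 5 and 6, and in untreated 7, 8 and 9 it was at 14.07, 8.993 and 14.19 CPM. The lowest PD-L1 antibody library was far above the highest of the other 6, and the isotype and untreated ranges overlapped. The means of 391 ± 102 against 11.02 ± 6.58 CPM (SD, n = 3) were 35.5-fold apart, a log2 difference of 5.16 (SE 0.36), which ranked 6 of the 13741 genes. Against 12.42 ± 2.97 CPM (SD, n = 3) in untreated wells the fold was 31.5, with a log2 difference of 4.86 (SE 0.36) and rank 10. Reads covered the transcript along its length: 95.3% to 97.3% of its exon bases had a depth of 100 or more with the PD-L1 antibody, and 0% did in any of the other 6 libraries. At a depth of 1 or more the covered share was 92.1% to 100% in those 6, so the transcript was present at a low level without the PD-L1 antibody.

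Slfn3, the nearest relative and next-door neighbour of Slfn4, had the smallest difference against the isotype antibody. It measured 38.06, 41.84 and 35.81 CPM in PD-L1 antibody 1 to 3, 33.7, 27.12 and 32.92 CPM in isotype 4 to 6 and 33.54, 19.01 and 24.52 CPM in untreated 7 to 9. The groups came close without overlapping, since the lowest PD-L1 antibody library was 35.81 and the highest other library 33.7 CPM. The means were 1.23-fold apart against the isotype antibody, with a log2 difference of 0.30 (SE 0.17), and 1.5-fold apart against untreated wells, with 0.60 (SE 0.17). Slfn4 and Slfn3 had 0 and 43 stretches of 150 bases in common with any other gene's transcript (the 43 of Slfn3, 2.58% of its stretches, were all shared with the gene model Gm11427). With shorter stretches of identity a read may still be placed on either, and how the authors placed such reads is not given in the sources used here. Reads over the Slfn3 gene that its exon coverage did not account for were 26.9% to 33.9% of the total over its span in the 9 libraries. For Slfn4 they were 19.0% to 32.1%, a range that overlaps that of Slfn3. They were 10.8% to 15.8% for Slfn8, 15.4% to 18.8% for Slfn9 and at most 7.67% for Slfn1, Slfn2 or Slfn5.

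**Figure D1:**
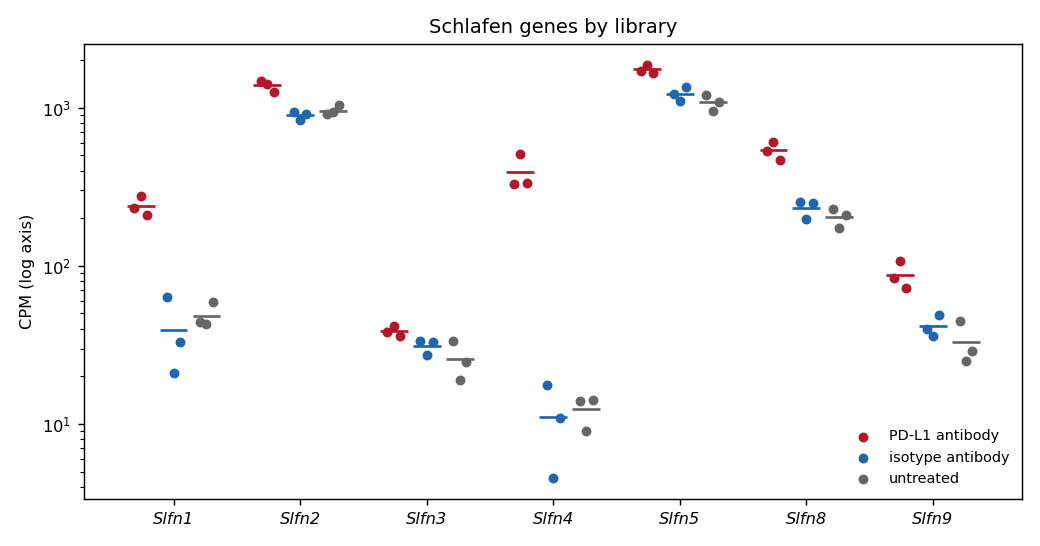
CPM of each Schlafen gene on a log axis; each point is 1 library and each line the mean of the 3 libraries of a group. Slfn4 stands at 327.6 to 509.2 CPM with the PD-L1 antibody and at 4.536 to 17.7 CPM in the other 6 libraries, whereas for Slfn3 the groups lie close together.

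Slfn1, a short member linked to T cell quiescence, differed second most. It measured 231.3, 275.9 and 208.8 CPM in PD-L1 antibody 1 to 3, then 63.28, 21.03 and 33.11 CPM in isotype 4 to 6, and in untreated 7 to 9 43.84, 42.77 and 58.77 CPM. Every PD-L1 antibody library was above all other libraries. The fold was 6.1 against the isotype antibody (log2 difference 2.71, SE 0.30, rank 65) and 4.93 against untreated wells (2.28, SE 0.30, rank 103).

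Slfn2, the other short member, was abundant in all groups. It measured 1469, 1422 and 1263 CPM in PD-L1 antibody 1 to 3, 943.2, 834.9 and 920 CPM in isotype 4 to 6 and 911.6, 936.9 and 1034 CPM in untreated 7 to 9. The PD-L1 antibody libraries lay above the rest by a narrow margin, from 1034 to 1263 CPM. The folds were 1.54 (log2 difference 0.62, SE 0.10) and 1.44 (0.53, SE 0.10).

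The long members Slfn8 and Slfn9 differed to a like extent. Slfn8 measured 532.9, 611.1 and 470.8 CPM in PD-L1 antibody 1 to 3, 254.2, 198.2 and 249.6 CPM in isotype 4 to 6 and 230.6, 174 and 211.1 CPM in untreated 7 to 9. Slfn9 stood at 84.03, 107.8 and 72.19 CPM, then at 40.07, 36.13 and 48.84 CPM, and then at 44.82, 25.15 and 29.08 CPM in the same order of libraries. In neither gene did the PD-L1 antibody libraries overlap the others. The folds for Slfn8 were 2.3 (log2 difference 1.20, SE 0.14) against the isotype antibody and 2.62 (1.39, SE 0.14) against untreated wells. Those for Slfn9 were 2.11 (1.05, SE 0.20) and 2.67 (1.41, SE 0.20).

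Slfn5, the other long member, was high in all libraries. It measured 1718, 1874 and 1661 CPM in PD-L1 antibody 1 to 3, 1224, 1096 and 1353 CPM in isotype 4 to 6 and 1211, 954.9 and 1091 CPM in untreated 7 to 9. The PD-L1 antibody libraries were again above all others, with folds of 1.43 (log2 difference 0.52, SE 0.12) and 1.61 (0.69, SE 0.12). Under scaling by total reads its difference against the isotype antibody was 0.34 and no longer called. Slfn5os, annotated on the opposite strand, went from 10.54 ± 1.59 and 7.845 ± 1.7 CPM to 15.49 ± 1.73 CPM (SD, n = 3 each). In 7 of the 9 libraries the covered part of its exons was 13.4%, and the 77 exon bases it has in common with Slfn5 make up that same 13.4%. The labels do not state that reads were assigned by strand, so these reads cannot be told apart from those of Slfn5.

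The depth of coverage along the transcripts, which also depends on how deeply each library was read, gave a like picture for the other members. For Slfn1 97.7% to 99.1% of exon bases had a depth of 100 or more in PD-L1 antibody libraries, 0% to 77.5% in isotype libraries and 31.0% to 82.2% in untreated ones. For Slfn9 these shares were 13.3% to 69.8%, 0% to 9.83% and 0% to 2.13%. Slfn2 and Slfn5, the abundant members, had shares of at least 97.2% in all 9 libraries, so that this measure cannot separate their groups. Slfn3 ranged from 11.8% to 59.6%, from 3.91% to 47.0% and from 0% to 21.9%, and its groups overlapped.

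Counted together, 6 of the 7 members were called higher against the isotype antibody (all but Slfn3) and 0 lower, where 18.2% of all tested genes were called in each direction. Against untreated wells 7 were called higher and 0 lower, where 22.0% and 20.5% of all genes were. The PD-L1 antibody libraries lay above all 3 of the other group for 7 of 7 members in both comparisons, where 26.0% and 26.3% of all genes did. The member medians were 1.05 and 1.39, and those of all genes -0.01 and -0.01. The members were chosen with these comparisons known, and both comparisons use the same PD-L1 antibody libraries, so nothing is read from these counts. Slfn4 ranked 6 and Slfn3 ranked 2670 of 13741 against the isotype antibody, and 10 and 1402 against untreated wells, which shows how far the members spread.

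**Figure D2:**
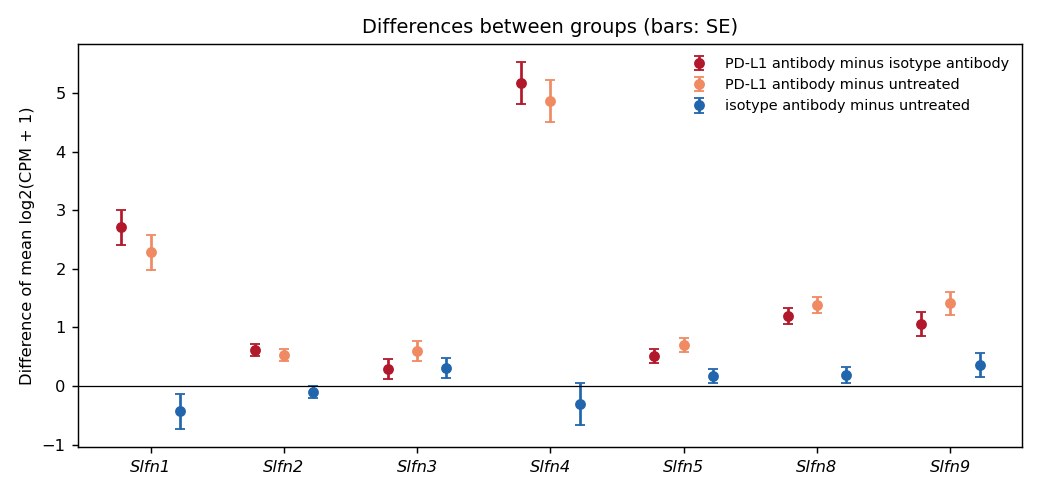
Difference of group means of log2(CPM + 1) for each Schlafen gene, with bars of 1 SE. The differences with the PD-L1 antibody run from 0.30 for Slfn3 to 5.16 for Slfn4, while those between isotype antibody and untreated wells run from -0.43 to 0.36.

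The comparison of isotype antibody with untreated wells asks what antibody protein does without the PD-L1 specificity. The family was chosen with earlier results of these libraries known, and whether this comparison had a part in the choice is not stated. No member was called, with limma adjusted p from 0.46 for Slfn3 to 0.74 for Slfn4, and 0 of 7 had an unadjusted p under 0.05. The log2 differences ran from -0.43 (SE 0.30) for Slfn1 to 0.36 (SE 0.20) for Slfn9, and the isotype and untreated libraries overlapped for all 7. Among all genes 1, the immediate early gene Fosb, was called (0.00728%), 1748 had an unadjusted p under 0.05, and edgeR and DESeq2 called 0 and 13. Single libraries moved these sizes: the Slfn1 difference was -0.84 without isotype 4 and -0.06 without isotype 5, and that of Slfn4, -0.30 over all libraries, was -0.70 and 0.18, changing sign in the latter. The absence of calls rested on untreated 7, the library of least depth, which had the highest untreated value for Slfn3, Slfn5, Slfn8 and Slfn9. Without it, 2295 of 13988 genes (16.4%) were called, and so were 2 members. Slfn3 was then higher with the isotype antibody by 0.51 (SE 0.13, limma adjusted p = 0.0196) and Slfn9 by 0.59 (SE 0.16, limma adjusted p = 0.0255).

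Per kilobase of exon, so that genes can be compared with each other, Slfn2 and Slfn5 led in every group. With the PD-L1 antibody Slfn2 stood at 832 ± 65 CPM per kb, Slfn5 at 292 ± 18, Slfn8 at 134 ± 18, Slfn1 at 129 ± 18, Slfn4 at 98.8 ± 26, Slfn9 at 22.8 ± 4.7 and Slfn3 at 21.2 ± 1.7 (SD, n = 3). Slfn8 overlapped Slfn1, Slfn1 overlapped Slfn4 and Slfn9 overlapped Slfn3, so the ranges of these neighbours in the order do not separate. Within libraries Slfn8 was above Slfn1 in 3 of 3 and Slfn1 above Slfn4 in 3 of 3, and Slfn9 above Slfn3 in 2 of 3. Slfn4 was last in the other groups, at 2.78 ± 1.7 CPM per kb in isotype libraries and 3.14 ± 0.75 in untreated ones. There Slfn9 stood at 10.8 ± 1.7 and 8.56 ± 2.7, Slfn3 at 17.2 ± 2.0 and 14.2 ± 4.0, and Slfn1 at 21.1 ± 12 and 26.1 ± 4.8 CPM per kb. Slfn1 and Slfn3 overlapped with the isotype antibody, where Slfn1 was the higher in 1 of 3 libraries, and Slfn3 and Slfn9 in untreated wells, where Slfn3 was the higher in 3 of 3.

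The summed level of the 7 genes was 1530 ± 131 CPM per kb in PD-L1 antibody libraries, 855 ± 73 in isotype libraries and 862 ± 52 in untreated ones. Slfn2, the largest part, made up 54.5% of that sum in PD-L1 antibody libraries, 63.3% in isotype libraries and 67.0% in untreated ones. Slfn4 made up 6.42%, 0.317% and 0.362%, and Slfn1 8.38%, 2.42% and 3.02%. The share of Slfn8 went from 6.80% and 5.93% to 8.75%, and that of Slfn5 was 19.1%, 23.9% and 21.0% in the order PD-L1 antibody, isotype antibody, untreated. Slfn9 and Slfn3 stayed small, at 0.993% to 2.01% of the sum in all 3 groups.

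**Figure D3:**
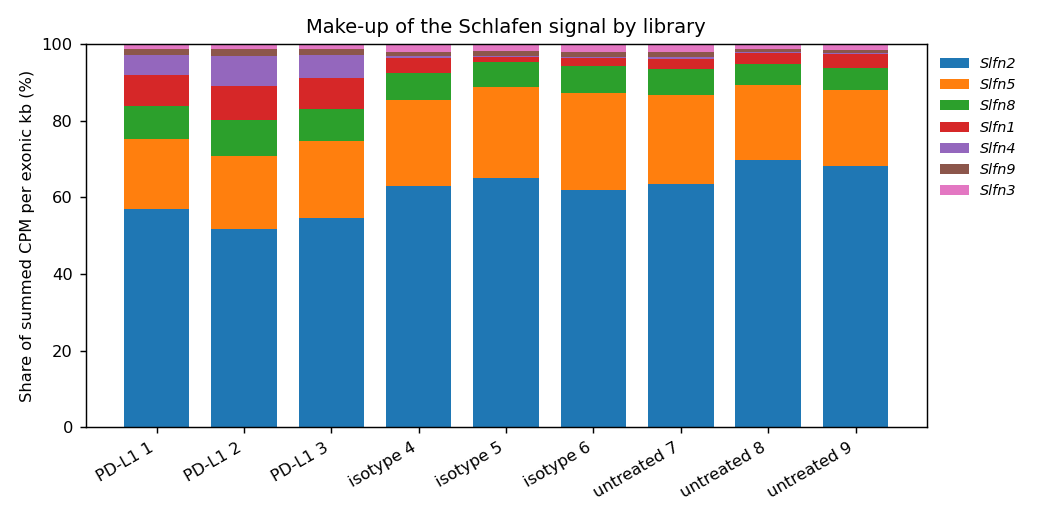
Share of each Schlafen gene in the summed CPM per exonic kilobase, 1 bar per library. The Slfn4 and Slfn1 segments are wider in the 3 PD-L1 antibody libraries, with means of 6.42% and 8.38%, than in the other 6.

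Across the isotype antibody libraries the highest value was 3.9 times the lowest for Slfn4 and 3.01 times for Slfn1, and at most 1.35 times for the other 5 members. In untreated wells the widest were Slfn9 and Slfn3, at 1.78 and 1.77 times, and with the PD-L1 antibody Slfn4 and Slfn9, at 1.55 and 1.49 times. Among the isotype libraries, isotype 4 was the highest and isotype 5 the lowest for both Slfn4 and Slfn1. Without isotype 4 the log2 difference of Slfn4 from the isotype antibody was 5.57 and that of Slfn1 3.12, and without isotype 5 they were 4.69 and 2.34.

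Neutrophil and precursor markers, 11 genes of which 1 stayed below 1 CPM, summed to 1385 CPM in isotype 4 against 791 and 809.1 in isotype 5 and 6. They summed to 499.6 to 662.8 CPM with the PD-L1 antibody and 620 to 803.8 in untreated wells. Markers of T cells, in which Slfn1 and Slfn2 are best known, summed over 8 genes to 3.554 to 6.82 CPM in PD-L1 antibody libraries, 6.474 to 14.8 in isotype libraries and 13.01 to 24.58 in untreated ones, and 4 of the 8 stayed below 1 CPM in all libraries. Cd4 alone stood at 1.253 to 2.079, 2.77 to 8.207 and 7.34 to 17.37 CPM in that order, while Cd3d, Cd3e and Cd3g stayed below 1 CPM. The differences in the T cell sum are thus largely those of Cd4. The PD-L1 antibody range of the neutrophil and T cell sums lay below the other groups' ranges or reached only their lower end. The part of such cells in the Schlafen differences was not tested. Monocyte markers (7 genes) summed to 496.5 to 629.1, 582.2 to 625.1 and 346.5 to 478.1 CPM in PD-L1 antibody, isotype and untreated libraries. Dendritic cell markers (7 genes) summed to 403.3 to 461.9, 317.4 to 534.7 and 269.7 to 518.4 CPM, most of it from Ccr7. B cell markers (6 genes, 4 below 1 CPM) reached at most 10.92 CPM and NK cell markers (6 genes, 5 below 1 CPM, with Gzma not listed) at most 9.12 CPM. Megakaryocyte and erythroid markers (7 genes) had a higher sum with the PD-L1 antibody, at 271.4 to 411.7 CPM against 91.55 to 142.4 and 161.9 to 195.2 CPM. The higher sum came from Pf4, at 245 to 366.4 CPM against 47.94 to 71.23 and 66.43 to 113.2 CPM. Gp9, Hba-a1 and Gata1 of the same list were lower in every PD-L1 antibody library than in any other library. In that list 1 gene was called higher and 3 lower against the isotype antibody, where 18.2% of all tested genes were called in each direction. The part of such cells in the Schlafen differences was likewise not tested.

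Of the other Schlafen loci, the pseudogene Slfn10-ps was the one above 1 CPM. Slfn10-ps measured 70.1, 81.81 and 75.08 CPM in PD-L1 antibody 1 to 3, 49.42, 44.24 and 58.57 CPM in isotype 4 to 6 and 49.52, 37.07 and 42.24 CPM in untreated 7 to 9. Its PD-L1 antibody libraries lay above all others, with log2 differences of 0.57 (SE 0.12) and 0.81 (SE 0.12). It has 87 stretches of 150 bases in common with Slfn9, 1.55% of those of Slfn9 and 2.51% of its own. Its reads and those of Slfn9 are uncertain to at least that extent, since shorter stretches of identity may also misplace a read. Slfn14 stayed below 1 CPM in every library and its groups overlapped. Slfnl1, on another chromosome, was listed in 2 libraries and was not tested.

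Around the cluster, 20 further genes within 500 kb on either side were tested. Against the isotype antibody 6 were called higher and 3 lower, with a median of 0.05, where 18.2% of all tested genes were called in each direction. Against untreated wells 6 were called higher and 4 lower, with a median of 0.03, where 22.0% and 20.5% of all tested genes were. The nearest on the Slfn5 side were Nle1 (-0.37) and Rad51d (-0.05), and on the Slfn3 side AI662270 (0.54). The highest was the chemokine gene Ccl5, at 2.60 (SE 0.27), 310625 bases beyond Slfn3, and the lowest the chemokine gene Ccl6, at -0.97 (SE 0.17). The 6 higher calls became 3 under scaling by total reads, and the 4 lower calls against untreated wells became 2 without PD-L1 antibody 1, PD-L1 antibody 2 or untreated 9.

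**Figure D4:**
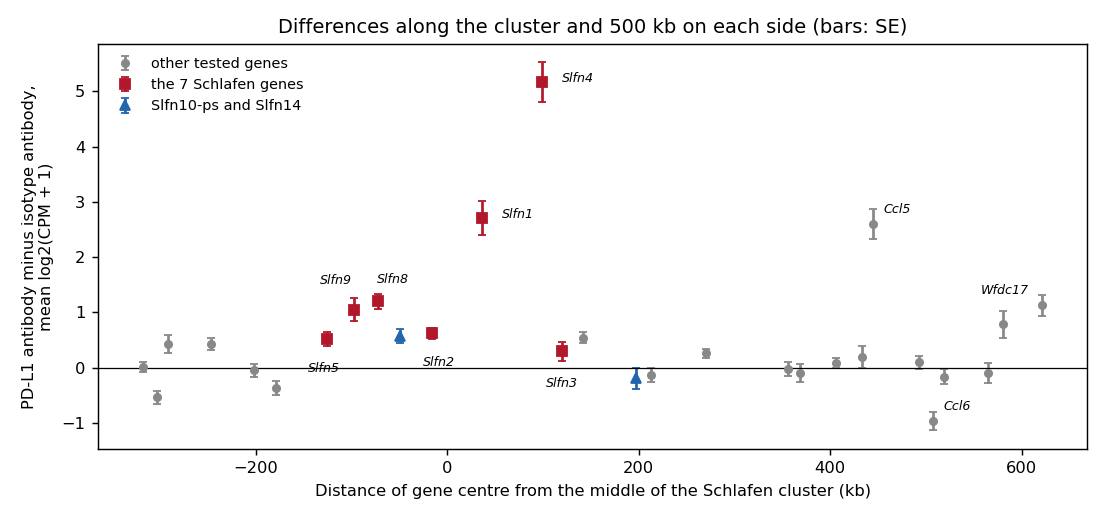
Difference between PD-L1 antibody and isotype antibody in mean log2(CPM + 1), with bars of 1 SE, by distance of each gene's centre from the middle of the Schlafen cluster. Slfn4 and Slfn1 stand at 5.16 and 2.71 while Slfn3, beside Slfn4, is at 0.30. The 20 tested genes around the cluster run from -0.97 to 2.60, with a median of 0.05.

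Genes that signal for interferon and Toll-like receptors, which are known to induce Schlafen genes, were measured in the same libraries. These lists and the further ones below were chosen with earlier results of these data known, so nothing is read from their counts. Of all tested genes, 18.2% were called in each direction against the isotype antibody. Against untreated wells 22.0% were called higher and 20.5% lower. Of 17 interferon receptor and signalling genes, 13 were called higher and 0 lower against the isotype antibody, at a median of 0.62, and 12 and 2 against untreated wells, at 0.40. Irf7, the factor that amplifies interferon production, averaged 2341 ± 80.7 CPM in PD-L1 antibody libraries, 1131 ± 177 in isotype libraries and 1373 ± 96.5 in untreated ones (SD, n = 3). Stat2, a signal transducer of type I interferon receptors, rose from 258.2 ± 47.8 CPM with isotype antibody to 585.8 ± 65.4 CPM (SD, n = 3), a log2 difference of 1.19 (SE 0.17). Without isotype 6 the lower calls against the isotype antibody were 1 and without untreated 7 they were 2, as they were under scaling by total reads or by the upper quartile. Against untreated wells the lower calls were 1 without PD-L1 antibody 2, PD-L1 antibody 3, untreated 8 or untreated 9, and with no filter.

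Of 15 Toll-like receptor and NF-kB signalling genes, 6 were called higher and 1 lower against the isotype antibody, at a median of 0.16. Against untreated wells 6 were called higher and 3 lower, at a median of 0.11. The shares of all tested genes were 18.2% in each direction in the first comparison, and 22.0% and 20.5% in the second. Tlr2, the receptor for bacterial lipoproteins, rose from 184.8 ± 22.4 to 538.8 ± 97.7 CPM (SD, n = 3), a log2 difference of 1.53 (SE 0.13). Tlr7 and Tlr4, at 245.7 ± 28.0 and 190.6 ± 12.8 CPM in the PD-L1 antibody group against 220.6 ± 25.1 and 208.9 ± 12.2 CPM with isotype antibody, were not called. The 1 lower call became 2 without untreated 7 and under scaling by the upper quartile and 5 under scaling by total reads, and the 3 against untreated wells became 1 without PD-L1 antibody 1, PD-L1 antibody 2 or untreated 9 or with no filter, and 0 without untreated 8.

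Further lists covered processes in which Schlafen proteins act. Their counts stand beside 18.2% of all tested genes called in each direction against the isotype antibody. Against untreated wells the shares of all tested genes were 22.0% higher and 20.5% lower. Of 12 genes of transfer RNA cleavage and repair, 2 were called higher and 1 lower against the isotype antibody, and 3 and 2 against untreated wells, at medians of 0.06 and 0.02. The higher calls against the isotype antibody were Rnaset2a and Rnaset2b, near-identical copies of an RNase gene at 198.4 ± 6.41 and 198.8 ± 6.44 CPM against 120.9 ± 17.2 and 121.1 ± 17.3 CPM, whose reads cannot be told apart. Rnh1, the inhibitor of RNase A type enzymes, stood at 360.4 ± 15.7 against 450.6 ± 62.4 CPM and was not called. The lower call became 2 without untreated 7, and the 2 lower calls against untreated wells became 1 without PD-L1 antibody 1, PD-L1 antibody 3, untreated 8 or untreated 9, with no filter, or from the deposited read counts. Of 15 quiescence genes, 2 were called higher and 6 lower in both comparisons, at medians of -0.02 and -0.04. Against the isotype antibody, the antiproliferative gene Btg1 rose from 371.8 ± 12.3 to 490.2 ± 27.9 CPM. Cdkn1a, the p21 cell cycle inhibitor, rose from 280.4 ± 59.9 to 390.3 ± 25.3 CPM. Klf6 stood at 668.6 ± 81.6 against 613.4 ± 29.0 CPM and was not called. Against untreated wells Cdkn1a was not called, with a log2 difference of 0.30 (SE 0.13, limma adjusted p = 0.081). The 2 higher calls there were Btg1 and Klf4, the latter named after its value was seen. The 6 lower calls against the isotype antibody, named after their values were seen, were the cell cycle inhibitor genes Cdkn1c and Cdkn2c, the Forkhead factor genes Foxo1, Foxo3 and Foxo4, and Rbl2 of the retinoblastoma family. Cdkn1c fell from 53.27 ± 3.64 to 5.309 ± 1.11 CPM (SD, n = 3), a log2 difference of -3.12 (SE 0.18). Cdkn2c fell from 19.22 ± 0.666 to 8.399 ± 1.06 CPM, a log2 difference of -1.11 (SE 0.17), and the other 4 had log2 differences of -0.41 to -0.58. The 2 higher calls became 1 without isotype 5 and under scaling by total reads, and against untreated wells 1 without untreated 8, without untreated 9, under scaling by total reads or with no filter.

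The genes whose profile over the 9 libraries was most like each member were found by the root mean square (RMS) difference of centred log2(CPM + 1) values among 9870 genes of at least 5 CPM on average. For Slfn4 they were Ptges (prostaglandin E synthase, 0.44), Arg1 (arginase 1, 0.45) and Fpr1 (a formyl peptide receptor, 0.48), against a median of 2.41 for all candidates. Arg1 averaged 35.6 CPM with the PD-L1 antibody, 0.144 CPM with isotype antibody and 0.165 CPM in untreated wells. The latter 2 means lie below the 1 CPM added before the logarithm, so the closeness of Arg1 to Slfn4 depends on that added value. The genes most like Slfn1 were Ccl5 (0.24), Gbp6 (an interferon-induced GTPase, 0.25) and AW112010 (0.26). For Slfn8 they were Gpsm2, Igtp (an immunity-related GTPase) and Stat2 (each 0.10 to 2 decimals, median 0.64), and for Slfn9 Trib3, Flrt2 and Aars (0.08 to 0.13, median 0.66). The small-difference members had Slirp, Snx11 and Rnf121 (Slfn2, 0.05 to 0.06), Zbtb21, Socs4 and Zfp809 (Slfn3, 0.08 to 0.10), and Tdrd7, Eaf1 and Gbp9 (Slfn5, 0.04 to 0.06) closest to them, against medians of 0.33 to 0.37.

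Among the members themselves, the closest profiles were those of Slfn3 and Slfn5 (RMS 0.15), Slfn2 and Slfn5 (0.16), and Slfn8 and Slfn9 (0.17). The farthest were Slfn3 and Slfn4 (2.20), the pair with the most similar coding sequences and adjoining positions. Slfn8 and Slfn9, the next most similar pair in coding sequence, were also close in profile. The nearest member to Slfn4 was Slfn1, at 1.21. These are descriptions over 9 libraries that share their groups.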

How the data were processed

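Poly(A) RNA from 9 macrophage libraries was sequenced as paired 150-base reads, per the labels' protocols, and Partek and STAR are named in the submitters' processing notes without version; their settings, strand handling and annotation are not given in the sources used here. The authors deposited, per transcript, a read count over its genomic span, average coverage of its exons (a signal), the percent of exon bases covered at set depths and percent GC. Coordinates matched GRCm38.p6 (15156 of 15217 single-transcript genes overlapped RefSeq's).

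Coverage times exon length divided by 150 gave exonic read equivalents, for 1 transcript per symbol (the largest sum over the libraries). edgeR 4.0.16 (filterByExpr, TMM) gave CPM and limma 3.58.1 in R 4.3.3 tested log2(CPM + 1) over all 9 libraries, 2-sided, with Benjamini-Hochberg adjustment over 13741 genes and a threshold of 0.05, without covariates or pairing. The code was checked on simulated data. Members and lists were chosen with earlier results of these data known; limma calls of members with the PD-L1 antibody are therefore only set beside the share of all genes called. Named were all members, up to 3 genes of highest mean CPM per list, the 2 nearest tested neighbours on each side (Ccl5 and Ccl6 were added after their values were seen), Slfn5os (also added so) and 3 genes of like profile per member. Some genes that this rule names are not reported here. Depth was 23554320 to 40116467 exonic read equivalents, so 1 CPM stood for over 20 reads in each library. File names place PD-L1 antibody 2 in a sequencing lane of its own. Alternatives were other scalings, filters, pseudocounts (0.25 and 5 CPM), a threshold of 0.01, the longest transcript, the deposited read counts, edgeR's quasi-likelihood test, DESeq2 1.42.0 and leaving out each library. Shared stretches were exact 150-base windows of GENCODE transcripts. Groups of 3 were not screened for outlying samples.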

Additional observations from a re-analysis of the deposited data

How the results depend on the processing

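Across scalings, filters, pseudocounts, transcript choice, deposited read counts, edgeR and DESeq2, 208 of 210 member differences kept their direction and their side of the threshold. The exceptions came under scaling by total reads, where Slfn5 against the isotype antibody was 0.34 and Slfn3 against untreated wells 0.46, both still above 0 and no longer called. Leaving out 1 library at a time, 184 of 189 did so: Slfn3 against untreated wells was no longer called without PD-L1 antibody 2 (0.54) or untreated 8 (0.41), and Slfn3 and Slfn9 were called between isotype antibody and untreated wells without untreated 7. Slfn4 between isotype antibody and untreated wells, not called in either fit, went from -0.30 to 0.18 without isotype 5, and ranged from -0.70 to 0.18 with 1 library left out. The number of members called there ranged from 0 to 2 over these 9 fits, and no other member difference changed sign under any setting run. The Slfn4 difference against the isotype antibody was 4.69 to 5.57 with 1 library left out and 4.69 to 5.28 under the other settings. Levels per kilobase moved by more than 1 SD in 12 of 105 comparisons with other settings. PD-L1 antibody 2, the library of another lane, cannot be told apart from its lane. It had the highest value of its group for every member but Slfn2. Without it the difference against the isotype antibody was 4.96 for Slfn4 and 0.90 for Slfn9, where all libraries gave 5.16 and 1.05. No paired analysis was possible because the groups share no replicate number in the labels. Low levels limit what can be said of Slfn14 and Slfnl1, which were below 1 CPM.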
